A study of Saccharomyces cerevisiae with 8 samples.

Results

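Between 30 and 60 min after hydroxyurea was washed out of wild-type budding yeast, 17 of 21 listed mother-daughter separation genes at least about doubled. So did 19 of 40 genes of the G1/S transition. Of the mitotic genes 9 of 25 were lower by as much, as were 2 of 11 histone genes, a divergent pair. Over all features kept, 2.58% were higher and 0.725% lower by that size. The lists were chosen with earlier results of these data known. The step was described by setting the wild-type library taken at 60 min of recovery (WT R60) against the one taken at 30 min (WT R30). It used 2 of the 8 libraries of the series, 1 a side, so every difference here is a fold size between 2 libraries with no replicate and no test. A feature was kept where its value was 1 or more in at least 1 of the 2 libraries, which retained 6481 of the 6547 annotated features. Of the 66 features left out, 14 were listed at 0 in both, and 31 of those kept had a highest value under 2.

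Both libraries came from the strain WFA72, labelled wild type. Log-phase cells had been held in G1 by alpha factor, the mating pheromone, then released into 200 mM hydroxyurea (HU) for 1 h, filtered to take the drug away, and returned to fresh medium for 30 or 60 min. Poly(A) RNA libraries were read at 75 bp from both ends. The same strain in alpha factor (G1) and in hydroxyurea (HU), and the same recovery step in the strain WFA73, labelled mec1, are given beside it, again as 1 library each. MEC1 encodes the checkpoint kinase related to human ATR, and the labels do not name the mec1 allele. The MEC1 feature stood at 35.7 and 38.7 RPM in WT R30 and R60 and at 83.9 and 76.6 RPM in the 2 libraries labelled mec1, so its level gives no check of that label, and those libraries are called by their label throughout.

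A value is in RPM, that is, with each library brought to the same total of reads, and is a mean over the stretches of genome, each a gene body with 1000 bp on either side, that touch the feature. A strongly expressed gene therefore also lifts its neighbours, and values are comparable between libraries but not between genes. The RPM scale rested on 1820129 reads in WT R30 and 3101748 in WT R60, or a median of 110 and 191 reads per window. Differences are R60 minus R30 in log2(RPM + 1), so that 1 is close to a doubling except at low values, and their 95% intervals cover counting error only. A second estimate, called separated below, divides the reads of overlapping windows among neighbouring genes.

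Budding yeast in recovery from hydroxyurea completes DNA replication, passes mitosis and divides, and its cell cycle transcripts come in waves. In mitosis the activators Mcm1, Fkh2 and Ndd1 drive the CLB2 cluster, which includes SWI5. The Swi5 protein enters the nucleus as cells leave mitosis and switches on genes of early G1, the time at which the genes for daughter cell separation are also transcribed. In late G1 the factors MBF and SBF switch on the cyclins and enzymes needed for the next round of replication.

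Across all features, 167 (2.58%) were higher at R60 by 1 or more and 47 (0.725%) were lower by 1 or more. The median difference was 0.0030, with quartiles of -0.15 and 0.17. The higher side reached further: 44 features were 2 or more higher and 10 were 3 or more higher, while 0 were 2 or more lower, and the range ran from -1.88 to 5.73. The same step in the strain labelled mec1 had fewer features past 1, with 8 of 6510 (0.123%) higher and 11 (0.169%) lower. Genes of the cell cycle lists, which hold 2.13% of the features kept, supplied 37 of the 167 and 13 of the 47. Of the 167 and the 47, 65 and 16 had another feature within 1000 bp that differed more in the same direction.

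**Figure D1:**
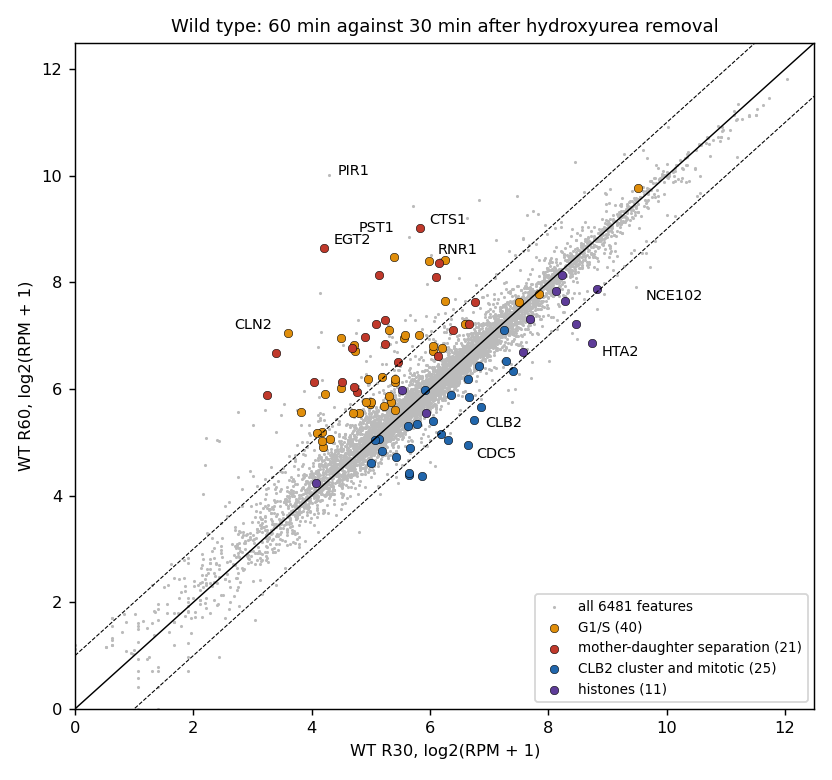
Each point is a feature, placed by log2(RPM + 1) in WT R30 and in WT R60, with the line of equality (solid) and the lines of a difference of 1 either way (dashed). Separation and G1/S genes lie above the upper dashed line in 17 of 21 and 19 of 40 cases, and CLB2 cluster genes lie below the lower one in 9 of 25.

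Genes for mother-daughter separation and other genes of the end of mitosis and early G1, known Swi5 targets among them, were higher at R60 as a group. All 21 had a positive difference, 17 of 21 were 1 or more higher, and the median was 2.05 on the log2 scale (2.83 separated). EGT2, which encodes a cell wall endoglucanase-like protein of daughter cells, stood at 23.3 RPM in G1, 22.7 in HU, 17.6 at R30 and 400 at R60. Its 3 earlier libraries were close to each other and far below R60, for a difference of 4.43 (95% counting interval 3.95 to 4.91). CTS1, the endochitinase that cuts the septum, stood at 55.9 RPM at R30 and 521 at R60, a difference of 3.20 (2.91 to 3.48), and within 1000 bp of it lies YLR286W-A, whose difference was larger. Unlike EGT2 it was also high in G1, at 193 RPM. The glucanase-like genes DSE4 and SCW11 differed by 3.29 and 3.00, and DSE2, DSE1 and DSE3, also daughter-specific, by 2.00, 2.09 and 1.60. AMN1, a daughter-cell antagonist of mitotic exit, was at 70.2 RPM at R30 and 327 at R60.

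Promoter stretches of 4 genes of this group that hold at least 2 copies of the letters ACCAGC, a Swi5 motif, and of PIR1, show what the letters look like in place. They are from RefSeq R64, read 5′ to 3′ on the coding strand, at chrXIV:23648-23871 (plus strand) for EGT2, chrVIII:385074-385268 (plus) for DSE2, chrXV:818536-818623 (plus) for DSE3, chrIV:137951-138030 (plus) for PCL9 and chrXI:143008-143043 (minus) for PIR1. Capitals mark ACCAGC or its reverse complement.
EGT2: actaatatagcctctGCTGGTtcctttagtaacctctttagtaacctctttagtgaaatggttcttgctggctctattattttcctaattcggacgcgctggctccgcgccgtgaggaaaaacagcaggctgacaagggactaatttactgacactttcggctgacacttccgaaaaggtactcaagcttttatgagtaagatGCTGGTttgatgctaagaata
DSE2: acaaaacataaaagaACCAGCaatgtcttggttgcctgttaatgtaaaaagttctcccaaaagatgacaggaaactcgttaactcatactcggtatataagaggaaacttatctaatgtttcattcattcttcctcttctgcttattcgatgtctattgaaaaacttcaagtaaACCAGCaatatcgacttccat
DSE3: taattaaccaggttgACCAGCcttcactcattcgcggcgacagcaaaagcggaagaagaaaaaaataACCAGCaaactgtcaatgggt
PCL9: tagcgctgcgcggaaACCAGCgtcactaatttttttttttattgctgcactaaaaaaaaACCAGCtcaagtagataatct
PIR1: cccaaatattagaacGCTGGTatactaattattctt
In the 500 bp before the start codon, ACCAGC on either strand was found in 11 of the 21 promoters of the group (52.4%), against 13.2% of 5845 promoters overall. At least 2 matches stood in 6 of the 21 (28.6%), against 0.975% overall. The list was drawn from genes known for this regulation, so the shares describe the list. CTS1 and SIC1 have no match of these letters in the window, which says nothing about any factor there.

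The regulators in the group were higher at R60 as well. SIC1, the inhibitor of the S-phase and mitotic cyclin kinases, stood at 27.4 RPM in G1, 35.5 in HU, 29.0 at R30 and 126 at R60, so the 3 earlier libraries lay together and R60 apart. ASH1, the repressor of mating-type switching in daughters, differed by 2.12, and RME1, a repressor of meiosis that also promotes CLN2, differed by 2.64 from a low start of 8.52 RPM. The G1 cyclin gene PCL9 differed by 2.08. The 4 members under 1 were PRY3 at 0.49, PCL2 at 0.57, SUN4 at 0.72 and NIS1 at 0.87. TEC1, a transcription factor, differed by 1.33 in the deposited values, while its separated value was 0 at R30 and 55.2 RPM at R60. Of the 21 genes, 19 had their highest wild-type value at R60 among the 4 libraries (90.5%), compared with 19.5% of all features.

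Cell wall mannoproteins split. The largest difference of any feature belonged to PIR1, which encodes a covalently attached wall protein: 18.5 RPM in G1, 12.7 in HU, 18.5 at R30 and 1036 at R60. The difference was 5.73 (5.27 to 6.20), and only R60 stood apart. Its promoter has 1 match of the Swi5 letters, shown with those of the separation genes. PST1, a wall protein induced by wall stress, stood at 49.3 RPM at R30 and 460 at R60. TOS6, PIR3 and TIP1 differed by 2.68, 1.58 and 1.13, making 5 of 19 mannoprotein genes 1 or more higher and 0 lower. The abundant wall protein gene CCW12 went the other way, from 2920 to 2255 RPM, and the median of the 19 was 0.23. Among 19 genes of glucan and chitin synthesis the median was 0.16, with 3 higher and 1 lower. CRH1, a chitin-glucan transferase, was at 113 and 743 RPM, the exoglucanase gene EXG1 at 177 and 787 RPM, and SCW10, for a glucanase-like wall protein, at 198 and 613 RPM. The 1 lower gene was CHS2, for the chitin synthase that builds the primary septum during cytokinesis, at 115 and 49.7 RPM. CHS1, for the chitin synthase that repairs the wall after separation, is among the separation genes and was at 36.8 and 156 RPM.

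G1/S genes were the other large group on the higher side. Of 40, 39 had a positive difference, 19 were 1 or more higher and 0 lower, and the median was 0.85 (1.81 separated). CLN2, which encodes a G1 cyclin, stood at 35.3 RPM in G1, 19.0 in HU, 11.2 at R30 and 132 at R60. R30 was the lowest of its 4 libraries and R60 the highest, with a difference of 3.44 (2.85 to 4.04). The other cyclin genes of the list were CLN1 at 1.40, PCL1 at 1.98, CLB6 at 1.08 and CLB5 at 0.20, whose interval of -0.19 to 0.59 spans 0. SVS1, a vanadate sensitivity gene regulated with the G1/S set, was at 40.9 and 358 RPM. TOS4, a chromatin-binding target of the G1/S factors, was at 21.5 and 124 RPM, and its separated value was 0 at R30. Outside the lists, 3 more genes were among the 15 with the largest differences. PRY2, which encodes a secreted sterol-binding protein, was at 941 RPM in G1, 143 in HU, 98.1 at R30 and 591 at R60, so that it was highest in pheromone. NFG1 and CSI2 differed by 2.53 and 2.29.

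The replication genes of the list had their own order. RNR1, the large subunit of ribonucleotide reductase, stood at 86.9 RPM in G1, 568 in HU, 62.2 at R30 and 338 at R60. It was thus high in the drug, low at R30 and high again at R60, below its drug level. POL30, the sliding clamp PCNA, had the same shape at 127, 227, 75.5 and 340 RPM, except that R60 was its highest library. MCD1, the cohesin subunit cut at anaphase, differed by 2.12, and CDC21, thymidylate synthase, by 1.76. The subunits of DNA polymerases differed less: POL1 by 0.83, POL12 by 0.73, POL2 by 0.57 and PRI1 by 0.42. SWE1, the kinase that restrains mitosis, was the 1 member with a negative difference, at -0.05 (-0.23 to 0.12). Separated, it was at 0.23, and all 40 members were positive. Of the 40, 33 were highest at R60 among the 4 wild-type libraries.

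The MBF letters are shown for 3 G1/S genes that hold at least 2 copies, at chrV:298450-298664 (plus strand) for RNR1, chrIV:444296-444411 (plus) for MCD1 and chrXV:467690-467762 (minus) for CDC21, again from RefSeq R64 and 5′ to 3′ on the coding strand. Capitals mark ACGCGT, which is its own reverse complement.
RNR1: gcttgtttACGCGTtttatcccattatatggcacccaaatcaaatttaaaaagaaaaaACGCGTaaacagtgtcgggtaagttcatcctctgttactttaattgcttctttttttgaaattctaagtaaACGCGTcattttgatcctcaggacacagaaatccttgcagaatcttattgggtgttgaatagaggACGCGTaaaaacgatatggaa
MCD1: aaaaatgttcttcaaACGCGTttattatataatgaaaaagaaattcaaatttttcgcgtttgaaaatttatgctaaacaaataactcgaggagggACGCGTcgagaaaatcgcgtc
CDC21: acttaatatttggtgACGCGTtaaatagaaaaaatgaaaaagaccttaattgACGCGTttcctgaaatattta
ACGCGT was present in 27 of the 40 promoters (67.5%), compared with 5.47% of all, and CGCGAAA, the SBF letters, in 13 (32.5%), compared with 5.89%. The list holds known targets of MBF and SBF, so these shares describe the list. Over all 5845 promoters, the share whose feature was 1 or more higher was 2.1% with no ACGCGT, 5.59% with 1 match and 39.4% (13 of 33) with 2. For CGCGAAA these shares were 2.13%, 6.23% and 38.1% (8 of 21). For ACCAGC they were 2.42%, 2.52% and 7.55% (4 of 53). G1/S list members made up 14 of the 34 promoters with 2 or more ACGCGT, and divergent neighbours can share both a promoter and windows, so the promoters are not independent of each other.

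**Figure D2:**
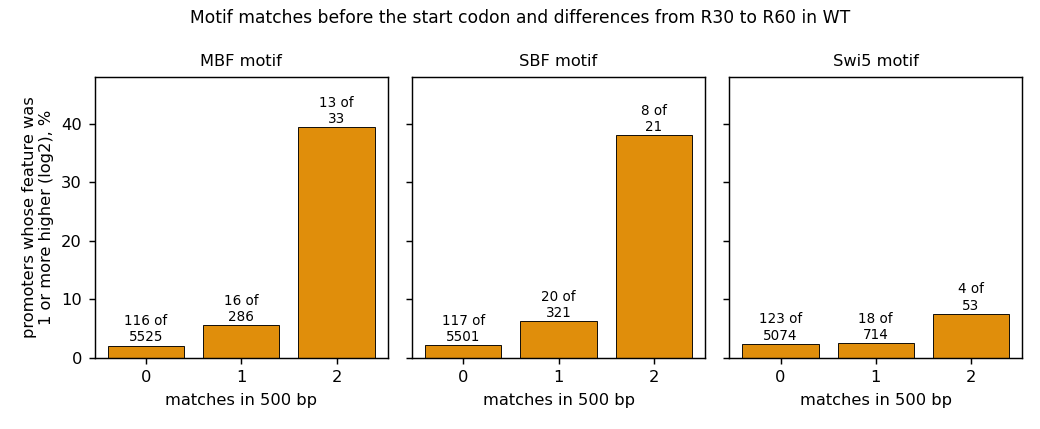
Bars give, for the MBF letters (ACGCGT), the SBF letters (CGCGAAA) and the Swi5 letters (ACCAGC), the percentage of promoters whose feature was 1 or more higher at R60, by the number of matches in 500 bp. Classes with fewer than 20 promoters are not drawn, and the share at 2 matches was 39.4%, 38.1% and 7.55%.

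Genes that load the replication machinery in late mitosis and G1 did not differ as 1 group. CDC6, the loading factor, which also stands among the Swi5 targets, was the only one of 16 past 1, at 43.2 and 89.5 RPM and a difference of 1.04. The G1 cyclin gene CLN3 and the SBF subunit gene SWI4 differed by 0.53 and 0.44. TAH11, the partner of Cdc6 in loading, was lower, at 211 and 131 RPM, and the median of the 16 was 0.05.

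The CLB2 cluster and other mitotic regulators were lower at R60. Of 25 genes 24 had a negative difference, 9 were 1 or more lower and 0 higher, and the median was -0.70 (-1.23 separated). CDC5, the polo kinase, stood at 17.2 RPM in G1, 23.2 in HU, 98.5 at R30 and 29.7 at R60. CLB2, the main mitotic cyclin, stood at 14.0, 47.1, 106 and 42.0 RPM. In both genes R30 was the highest library and R60 was back near the level in hydroxyurea, with differences of -1.69 (-2.05 to -1.34) for CDC5 and -1.32 for CLB2. BUD4 and MOB1, for a bud site landmark and a mitotic exit kinase subunit, differed by -1.25 and -1.21, and TPO3, a polyamine exporter of the cluster, by -1.26. HOF1, a cytokinesis protein, was at 57.0 and 19.8 RPM.

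SWI5, which encodes an activator of early G1 genes, belongs to this cluster. It was at 49.8 RPM at R30 and 28.9 at R60, a difference of -0.77 (-1.18 to -0.36). CDC20, the activator of the anaphase-promoting complex, differed by -0.45, and CLB3 by -0.02. HST4 was the 1 gene above 0, at 0.07. In all, 19 of the 25 were highest at R30 among the 4 wild-type libraries (76%), against 20.9% of all features.

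The promoters of SWI5 and BUD4 in this cluster hold the Mcm1 and forkhead letters a few bases apart, at chrIV:751022-751123 (minus strand) and chrX:598523-598575 (plus) in RefSeq R64. Capitals mark the Mcm1 pattern, CC and GG with any 6 bases between them, and GTAAACA (forkhead), and overlapping Mcm1 matches run together.
SWI5: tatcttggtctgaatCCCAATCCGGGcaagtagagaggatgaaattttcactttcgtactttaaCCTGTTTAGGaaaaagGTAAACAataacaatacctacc
BUD4: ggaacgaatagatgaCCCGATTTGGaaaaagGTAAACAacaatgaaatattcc
GTAAACA occurred in 13 of the 25 promoters (52%), against 10.4% of all 5845, and the loose Mcm1 pattern in 17 (68%), against 49.2%. The cluster is known for regulation by these factors, so here too the shares describe the list.

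Cytokinesis and spindle genes were mixed. Among 14 septin and contractile ring genes the median was -0.18. HOF1 and BNR1 were 1 or more lower, although the separated value of BNR1 was 0 in both libraries, and CYK3, a cytokinesis protein counted among the separation genes as well, was at 21.7 and 69.0 RPM. The septin genes CDC11 and CDC3 differed by -0.03 and -0.0050. Of 16 tubulin and motor genes, TUB4, the gamma-tubulin, was 1.06 higher and ASE1, which bundles the anaphase spindle midzone, was 1.06 lower (-1.06), with a median of -0.10.

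Histone genes peak in S phase in yeast. HTA2, for histone H2A, stood at 60.8 RPM in G1, 144 in HU, 428 at R30 and 115 at R60. R30 exceeded every other wild-type library, and the difference of -1.88 (-2.06 to -1.70) was the lowest of all features kept. HTB2, its divergent partner for H2B, differed by -1.24, HHT2 by -0.95 and HHF1 by -0.87. HTA1 differed by only -0.08, and the linker histone gene HHO1 by 0.46. Of 11 genes, 2 were 1 or more lower and 0 higher, with a median of -0.38, and 7 of the 11 were highest at R30. Those 2 were HTA2 and HTB2, which lie within 1000 bp of each other, and HTB2 was at -1.20 separated. The single gene UTP20, a ribosome assembly factor 1 or more lower at -1.49, lies beside HTA2 and shares its windows. Separated, UTP20 was at -0.84.

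In bulk RNA a change in the share of cells at a cell cycle stage and a change in the RNA of each cell cannot be told apart, and this holds for every group above.

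**Figure D3:**
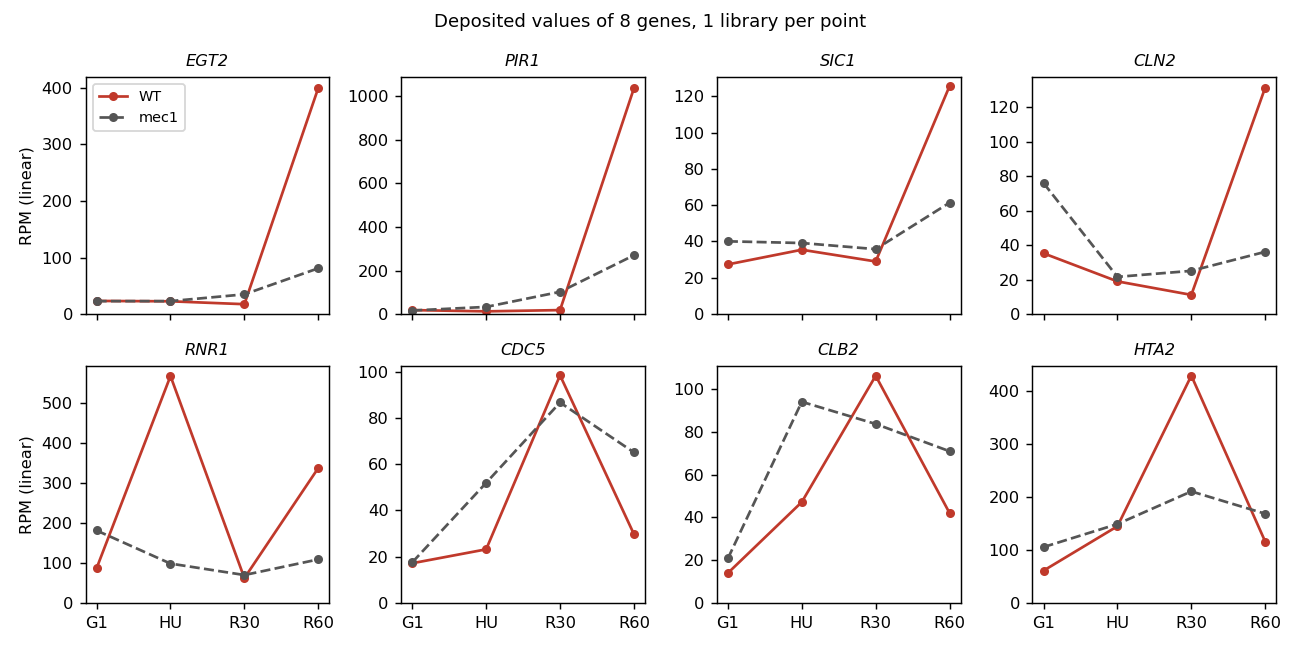
Deposited RPM of 8 genes in G1, HU, R30 and R60 on linear axes from 0, with 1 library per point, WT solid and the strain labelled mec1 dashed. In WT, EGT2, PIR1, SIC1 and CLN2 are highest at R60, RNR1 is highest in HU with R60 second, and CDC5, CLB2 and HTA2 are highest at R30.

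Genes of ribonucleotide reductase and the DNA damage response, in a list without RNR1, were lower in part. RNR1 is counted with the G1/S genes above and was 2.42 higher. Of 17 genes 4 were 1 or more lower and 0 higher, and the median was -0.23. Of those 4, 2 had another feature within 1000 bp that differed more in the same direction. RNR4 and RNR2, for the small subunits, stood at 2467 and 2069 RPM in HU, 801 and 569 at R30, and 374 and 280 at R60. Both were still above their G1 values of 286 and 178 RPM at R60. SML1, the inhibitor of the reductase that checkpoint signalling removes, was at 845 and 310 RPM, and HUG1, a damage-induced inhibitor next to it, at 491 and 219 RPM. SML1 was highest at R30 and above its HU value of 453 RPM. None of 14 checkpoint kinase, sensor and adaptor genes passed 1 in either direction, TOF1 coming nearest at 0.99.

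Genes for protein folding and turnover had small negative differences in most members, under 1 in size in nearly all. Of 26 heat shock and chaperone genes, 23 had a negative difference with a median of -0.52. HSP82, an Hsp90 chaperone, stood at 70.5, 81.2, 159 and 62.4 RPM over G1, HU, R30 and R60, so R30 stood above the other 3, and its difference of -1.34 was the only one at -1 or below. SSA1, an Hsp70, differed by -0.94 and the disaggregase gene HSP104 by -0.91. HSP26 was 1 or more higher at 1.74, but it neighbours the feature YBR071W, which was at 16.6 and 223 RPM and was named for that reason. All 33 genes of the proteasome list, which holds RPN4 beside the subunit genes, had a negative difference. They ran from PUP1 at -0.68 to RPN4 at -0.04, with a median of -0.38 and 0 past 1. The list has 24 of 33 genes highest at R30. UBI4, the stress-induced polyubiquitin gene, was at 58.6 RPM in G1, 170 in HU, 166 at R30 and 52.9 at R60, a difference of -1.63 (-1.90 to -1.36).

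At the plasma membrane, NCE102, an eisosome protein that responds to sphingolipids, was at 58.2 RPM in G1, 203 in HU, 717 at R30 and 241 at R60. SUR7, another eisosome protein, followed the same order at 58.8, 184, 336 and 132 RPM except that R60 was below HU, and MRH1, a membrane protein, was at 891 and 436 RPM. PIL1, a core eisosome subunit, was 1.04 higher, but it adjoins the gene PDC6, whose deposited difference was larger. Among the 11 genes 3 were 1 or more lower and 1 was 1 or more higher, with a median of -0.24. Other genes on the lower side were MMR1, which ties mitochondria to the bud-directed myosin (-1.45), ZNF1, a transcription factor (-1.31), and PDH1, of propionate metabolism (-1.47).

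Metabolic lists differed by less than 1 in nearly all members. All 9 genes of fatty acid synthesis and elongation had a positive difference and were highest at R60 of the 4 wild-type libraries, with a median of 0.41, from TSC13 at 0.06 to FAS2, a fatty acid synthase subunit, at 0.74. Of the 37 respiratory chain and ATP synthase genes 32 were positive with a median of 0.23, RIP1, the Rieske protein, being highest at 0.72. Sulphate assimilation and the methionine cycle had 19 of 23 positive, led by methionine synthase MET6 at 0.92, with a median of 0.27. Glycolysis had 13 of 17 negative and a median of -0.26. Among 17 hexose transporter and glucose sensing genes, HXT2 was at 348 and 1221 RPM and HXT4 at 618 and 1359 RPM, with a median of 0.18 for the list. Of these 2 genes, 1 had another feature within 1000 bp that differed more in the same direction. GLN1, glutamine synthetase, was the only one of 49 amino acid genes past 1, at 225 and 624 RPM. AGP1 and MEP3, permeases for amino acids and ammonium, were 1.26 and 1.02 higher among 16 nitrogen genes, and 1 of these 2 likewise had a larger neighbour. PDC6, for a minor pyruvate decarboxylase, was 1.22 higher, but it adjoins PIL1 and its separated difference was -1.08.

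Most of the remaining lists had medians within the quartiles of all features. Ribosomal proteins had medians of -0.01 for both the 81 large-subunit and the 56 small-subunit genes, mitochondrial ribosomal proteins 0.04 (67 genes) and ribosome biogenesis -0.07 (56 genes). The citric acid cycle (0.04), the glyoxylate cycle and gluconeogenesis (-0.08), the pyruvate decarboxylase and alcohol dehydrogenase set (0.09), trehalose and glycogen (0.0055), ergosterol (0.04) and purine synthesis (-0.06) were within 0.1. So were iron (0.06), thiamine (0.06), the Yap1 set (0.0080), the Msn2 and Msn4 set (0.06), endoplasmic reticulum folding (-0.08), amino acid synthesis (0.0099) and nitrogen scavenging (0.06). Zinc uptake stood at 0.11, and phosphate uptake was outside the quartiles at -0.25, with 12 of 15 members negative.

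Mating genes were looked at because alpha factor arrests cells of the a type. The sums given are a description, since values are not comparable between genes. The a-cell gene STE2, the alpha factor receptor, was at 396 and 435 RPM, and the 6 a-cell markers summed to 1415 and 1889 RPM at R30 and R60. The 5 alpha-cell markers summed to 101 and 128 RPM, with MF(ALPHA)1 at 7.25 and 5.55 RPM. Of the 5, 3 had a negative and 2 a positive difference. The highest, at 1.16, had another feature within 1000 bp that differed more in the same direction. BAR1, the protease that destroys alpha factor, was at 520 RPM in G1, 29.6 in HU, 38.2 at R30 and 145 at R60, and the pheromone gene MFA1 at 989 RPM in G1 and 136 at R60. Both were far below their pheromone-arrest level at R60 and above R30. Of 32 pheromone response genes 3 were 1 or more higher, the third being GIC2, a Cdc42 effector (1.60), and the median was 0.21. For 13 meiosis markers the median was -0.01 and 0 passed 1.

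The strain labelled mec1 took the same 30 min step with smaller differences. Of the 167 features higher in WT, 151 had the same sign there, 3 were past 1, and the median was 0.31 against 1.41 in WT. Of the 47 lower features 40 had the same sign and 2 were past -1, with medians of -0.27 and -1.24. Both sets were picked by their size in WT, so smaller values in mec1 follow in part from that choice. Over all 6510 features, 50.8% had a positive difference in mec1. The separation genes had a median of 0.41, with EGT2 alone past 1 at 1.19, the G1/S genes 0.18, and the CLB2 cluster -0.04. PIR1 was at 102 and 270 RPM there, so its R30 value was above that of WT R30 and its R60 value below that of WT R60. CLB2 was at 83.6 and 70.9 RPM, between the 2 wild-type values at both times, and CDC5 at 86.7 and 65.1 RPM likewise. TIP1 was the only one of the 167 that differed more there, at 1.45, and PDH1, at 88.0 and 20.3 RPM, had the lowest difference in those libraries at -2.06. SML1 stood at 65.5 and 39.6 RPM and HUG1 at 38.6 and 22.2 RPM, all below either wild-type library. These genes lie next to each other, so their values may share reads and are not separate observations. With 1 library per strain and time, no difference between the strains was tested.

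**Figure D4:**
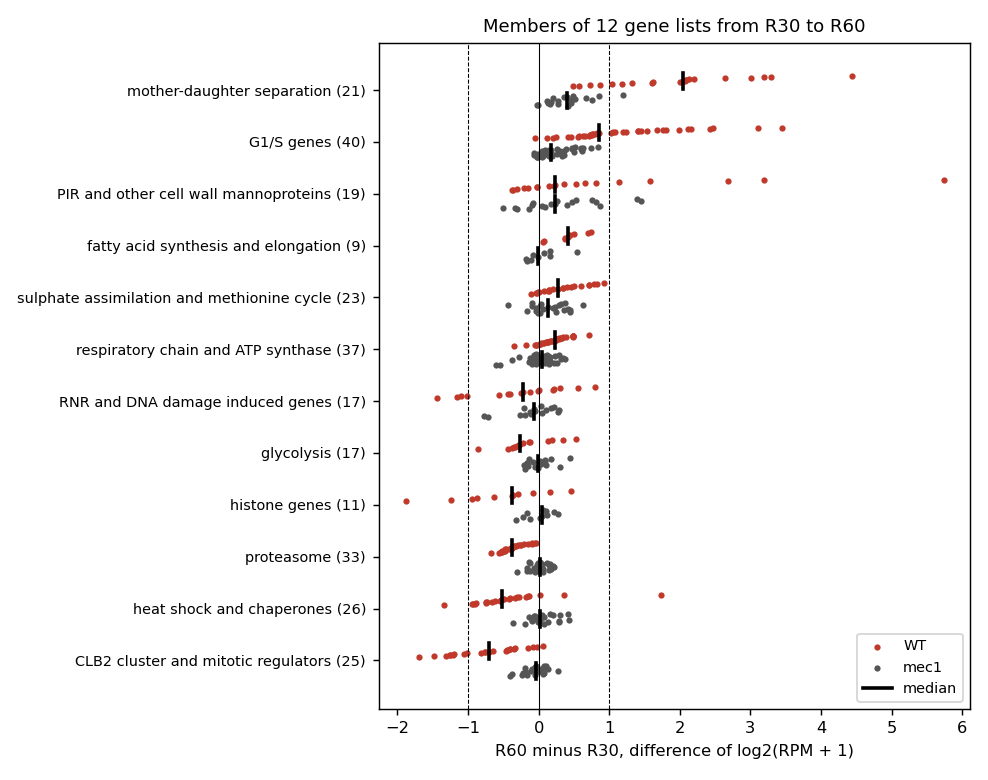
Each point is a gene of 1 of 12 lists, placed by its difference R60 minus R30 in log2(RPM + 1), in WT (red, upper row) and in the strain labelled mec1 (grey, lower row), with the list median as a black bar and dashed lines at 1 and -1. The separation list has a median of 2.05 in WT and 0.41 in mec1, and the CLB2 cluster -0.70 and -0.04.

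Neighbouring genes limit single values: after separation 120 of 146 higher features with a RefSeq entry were still 1 or more higher and 12 were at 0 or below, while 31 of 40 lower features were still past -1 and 5 were at 0 or above. All 30 genes chosen for the size of their difference kept its sign and stayed past 1. Genes beside a larger neighbour had been passed over in choosing them, so this does not speak for other genes.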

How the data were processed

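Messenger RNA was sequenced from 8 yeast cultures, 1 library each, with a stranded TruSeq kit per the labels. Per the submitters' processing notes, BWA (no version stated) and the genome build sacCer3 were used. The authors' deposited table calls its values log2 RPKM per the file headers, but they are on a linear scale and not divided by length. The deposited values are therefore read as RPM that the authors averaged over windows of a gene body with 1000 bp on each side: each value times its number of windows was a whole multiple of 1 step per library, to within 0.00561 of a step, and the window number was rebuilt exactly for 6303 of 6547 features (96.3%). Whether counting used strand is not given in the sources used here. Features matched RefSeq R64 by identifier for 5902 of 6547. Table positions differed from R64 by a median of 3 bp, so only R64 coordinates are printed.

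Differences were computed as log2(RPM + 1) at R60 minus R30 for features at 1 or more in either library, with no test, and 1 taken as the size described. The 95% intervals approximate the Poisson error of the average number of reads in a window, without molecular identifiers, and leave out every other error. Neighbours were separated by non-negative least squares over the shared windows, limited to features with a RefSeq entry; deposited and rebuilt standard deviations across windows correlated at 0.954 (R30) and 0.951 (R60) over 6024 and 6061 features. Python 3.11.15, numpy 2.4.6, pandas 2.3.3 and scipy 1.17.1 were used. The separation was also run on reads simulated with the same windows and features, so that run cannot show whether those assumptions hold.

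The members, the 42 gene lists and the rules were chosen with earlier results of these data known. Genes were named by rule: 15 in each direction with the largest difference, a value of 20 or more in either library and an interval without 0, passing over 5 in each direction with a larger neighbour and those with systematic names only, plus up to 4 genes at each end of every list. Members between those ends, the genes outside the lists, the promoters shown (picked for their matches) and the 500 bp window were chosen after values were seen. Motifs were searched on both strands, overlaps counted. A few genes are not reported here. All 8 sample columns were mapped (0 left unused). The 10 alternatives changed the pseudocount, the filter on low values, the scaling and the treatment of neighbours.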

Additional observations from a re-analysis of the deposited data

Results flagged for a closer look

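These results stood out because the values of the wild type and of the strain labelled mec1 had opposite signs from R30 to R60, each with 1 library a side. The mec1 values were near 0, so the signs there carry little weight, and the difference between the strains was not tested. Lists were looked at where the wild-type median lay beyond the upper quartile of all features in size, a limit set after the medians were seen.

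UBI4, the polyubiquitin gene, differed by -1.63 in WT and by 0.12 in mec1, where it was at 235 and 255 RPM and the counting interval of -0.04 to 0.27 spans 0. MOB1, of the mitotic exit network, differed by -1.21 and 0.06, and its mec1 interval of -0.36 to 0.48 spans 0. The median of the heat shock and chaperone genes was -0.52 in WT and 0.02 in mec1, that of the proteasome -0.38 and 0.02, that of the histones -0.38 and 0.05, and that of the septins and cytokinesis ring -0.18 and 0.04. Fatty acid synthesis and elongation had 0.41 in WT and -0.01 in mec1. All 5 of these mec1 medians lie within the quartiles of all features in that strain, -0.10 and 0.11.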

How the results depend on the processing

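None of the 30 named genes, chosen for size and without a larger neighbour, changed sign under the 10 alternatives. Of the list medians under each alternative, 17 values in 11 lists did. Alpha-cell markers went from -0.23 to 0.46 with 10 or more required in both libraries. With features beside a larger neighbour left out, replication licensing went from 0.05 to -0.21 and glucan and chitin synthesis from 0.16 to -0.01. The others had reported medians of -0.08 to 0.06. No paired analysis was possible because each strain and time has 1 library and no result comes from a test, and for the same reason no replicate could be left out. The 167 higher and 47 lower features became 292 and 149 with neighbours separated (5854 features), 102 and 31 with features beside a larger neighbour left out, and 115 and 27 with a pseudocount of 10. Other settings gave 136 to 193 higher and 38 to 56 lower. Of the list medians 409 stayed close to the reported value and 11 moved. Separated medians were 2.83 for the separation genes, 1.81 for G1/S, -1.23 for the CLB2 cluster and 0.84 for a-cell markers. With features beside a larger neighbour left out they were -0.87 for histones, 0.32 for iron, -0.46 for endoplasmic reticulum folding, -1.19 for eisosomes and 1.49 for a-cell markers. Glycolysis stood at -0.06 under quantile normalization and eisosomes at -0.53 with 10 or more required in both libraries. Of the differences of the 30 named genes 280 values stayed close and 17 moved; PIR1, EGT2, CLN2, DSE4 and RME1 were smaller with a pseudocount of 10, at 5.20, 3.89, 2.74, 2.52 and 1.88. Centring shifted all features by 0.0030 and the trimmed mean by 0.0042. WT R30, the shallower library, limits low features: 31 of the 167 and 9 of the 47 had a lower value under 10 RPM.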

Other observations

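Outside the lists and the 30 genes named by size, 27 genes with a symbol, no larger neighbour, a value of 20 RPM or more and a counting interval without 0 were 1 or more higher at R60. Those given here were picked after their values were seen and stand for no gene group. PDS5, which holds cohesin on chromosomes, was at 10.5 RPM at R30 and 51.8 at R60 (2.19). MSA2, a co-activator of G1/S transcription, was at 13.6 and 61.3 RPM (2.09). HSL1, the bud neck kinase that restrains Swe1, was at 29.1 and 91.5 RPM (1.62), and SPC42, of the spindle pole body, at 16.6 and 46.0 RPM (1.42). RTT107, a scaffold at damaged replication forks, differed by 1.37.

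TOS7 was at 22.1 and 112 RPM (2.29) and the wall protein gene NCW2 at 60.5 and 250 RPM (2.03). SUR1, of sphingolipid mannosylation, differed by 1.98, MCD4, of GPI anchor synthesis, by 1.71, the wall protease gene YPS3 by 1.70 and OCH1, which starts the outer N-glycan chain, by 1.26. All of these were picked by their difference in WT and had smaller ones in mec1, from 0.13 to 0.71. Not every member held up to separation from its neighbours: HOP2 (1.49) and PEX18 (1.01) were estimated at 0 in both libraries.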
